A study of Mus musculus with 4 samples.

Results

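The 35 genes described here encode heat shock proteins and chaperonins. They were selected by symbol from a written list of members, and all 35 were found among the 31735 gene rows shared by the 4 libraries. Heat shock proteins and chaperonins hold other proteins in a foldable state. HSP70 proteins bind exposed stretches of a client and release them on ATP exchange, J proteins bring the client and exchange factors end the cycle, while HSP90 finishes a smaller set of clients and the chaperonin CCT folds actin and tubulin in a closed chamber. Heat shock factor 1 raises a part of these genes when unfolded protein accumulates, through heat shock elements in their promoters, and a separate response raises the chaperones of the endoplasmic reticulum (ER). Neurons rely on constitutive members such as Hspa8, which also strips clathrin from synaptic vesicles.

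The libraries hold RNA bound to tagged ribosomes of the rostral pons of adult mice. All 4 form 1 group: mice of the Cbln2-TRAP line NIDA172, in which a fusion of EGFP and the ribosomal protein Rpl10a is made from a Cbln2 construct (Cbln2-EGFP/Rpl10a), all untreated controls, with replicates 1 to 4. A description attached to replicate 4 ends with the number of replicate 3, and the title was followed. Antibodies to EGFP pulled down the tagged ribosomes (translating ribosome affinity purification, TRAP), so the RNA is meant to come from cells that use this Cbln2 transgene, whose makeup the labels do not resolve further than neurons. Strain, sex, exact age and pooling of animals are not stated by the labels, nor whether the replicates are separate animals, so p-values measure the spread between libraries, which may be technical.

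Library totals over gene rows ran from 12731825 to 21140265 counts, and 1 count was worth 0.0473 to 0.0785 CPM (a gene's count scaled to a library of 1000000). A count of 0 allows up to 0.142 to 0.236 CPM, counting error only. The libraries fall into 2 pairs by library number, replicates 1 and 2 against replicates 3 and 4, and Rn45s, a ribosomal RNA precursor, held 1.68% and 1.61% of gene counts in the first pair and 24.2% and 9.29% in the second. The totals for CPM include Rn45s, which lowers the CPM of all other genes, most in replicate 3. All 12 neuronal markers on a written list were at 1 CPM or more in all libraries, with summed levels of 26814, 23845, 12442 and 13342 CPM in replicates 1 to 4. Of these sums, 1 marker held 18577, 15908, 8131 and 6936 CPM, and the markers did not all move together. Between the pairs, edgeR called 1 of the 12 higher and 1 lower in the second pair. DESeq2 called 1 higher and 2 lower (adjusted p under 0.05). The neuronal nuclear marker Rbfox3 had 181, 295, 277 and 169 CPM, and Cbln2 239, 110, 126 and 65.7 CPM. Glial RNA was also present: astrocyte markers summed to 2104, 2406, 639 and 2615 CPM and oligodendrocyte markers to 1737, 1867, 455 and 2525 CPM, both lowest in replicate 3. Their defining markers Aldh1l1 and Mbp had 0.90, 3.28, 4.01 and 6.33 CPM and 366, 355, 237 and 1147 CPM. Summed markers of oligodendrocyte precursors reached 18.6 to 98.7 CPM, of microglia 9.26 to 55.8 CPM, of blood 1.89 to 15.3 CPM and of ependyma and choroid plexus 7.14 to 127 CPM, the last highest in replicate 4. Summed cerebellar markers were lower in the second pair. Granule cell markers summed to 639, 1539, 189 and 320 CPM, with 2 of 8 called lower by edgeR and 7 by DESeq2 (adjusted p under 0.05). Purkinje cell markers summed to 1448, 2479, 722 and 680 CPM, with 2 of 5 tested called lower by edgeR and 3 by DESeq2. The Purkinje markers did not all fall. Their defining marker Pcp2 had a log2 difference of second minus first pair of 1.85 (SE 1.34) in edgeR. Another tested Purkinje marker also had a positive difference, 0.57 (SE 0.37), and neither was called by either tool.

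Chaperone messages were abundant in this RNA. The 35 genes together made up 0.933%, 0.904%, 0.768% and 0.963% of all gene counts in the 4 libraries in order, and Hspa8, Hsp90aa1 and Hsp90ab1 supplied 43.2% to 45.6% of that. The low share in replicate 3 depends on Rn45s, which held 24.2% of gene counts there. Of the 35, 34 reached 1 CPM in all libraries, where 33.5% of all gene rows did, and 14 reached 100 CPM in all, against 4.19%. The exception at 1 CPM was Hspa1b. In bulk RNA of this kind, fewer cells that use a gene and less RNA per cell cannot be told apart.

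**Figure D1:**
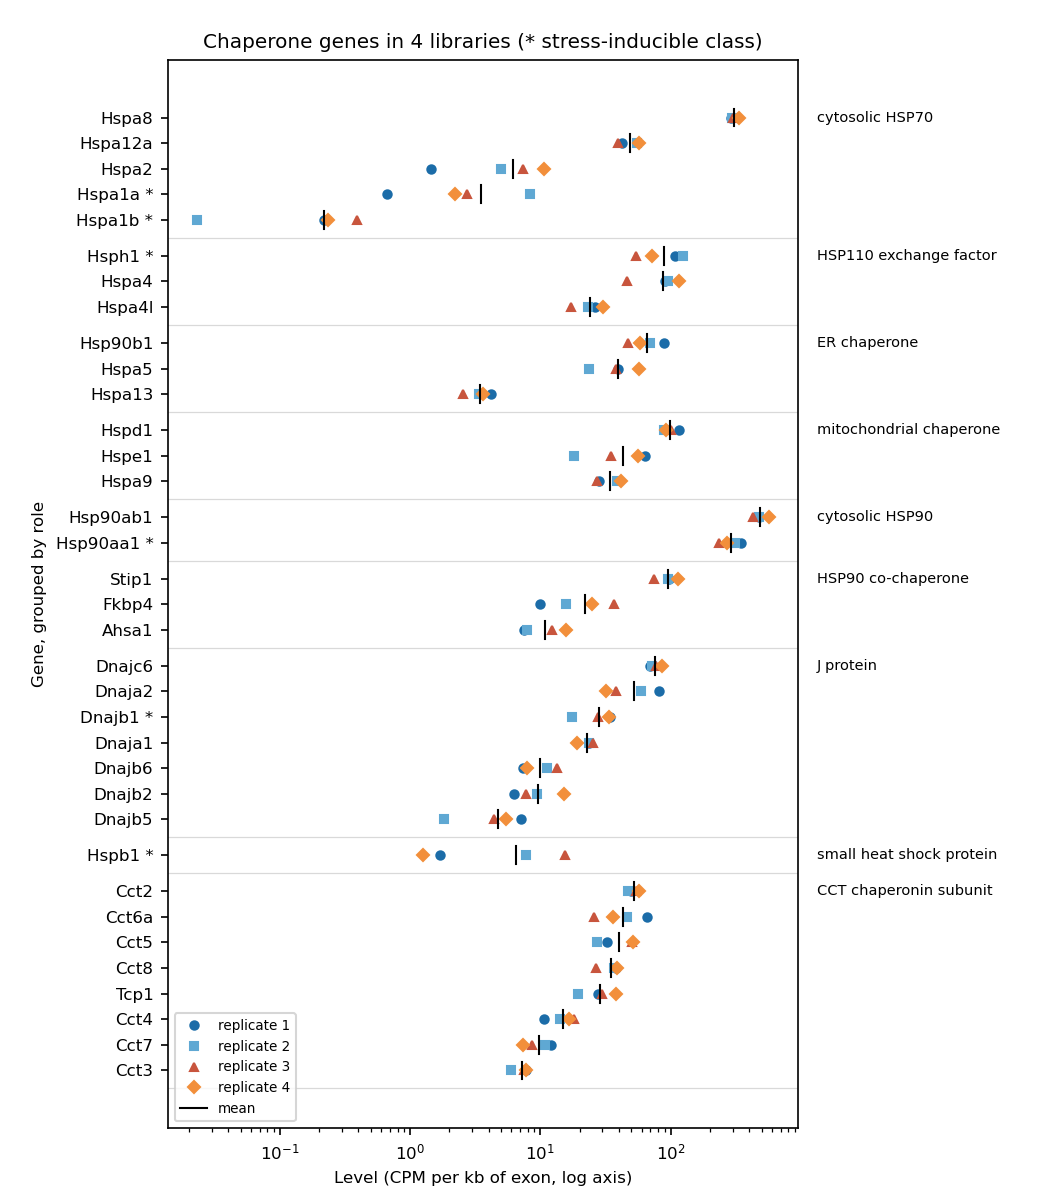
Level of each of the 35 genes in CPM per kb of exon (log axis) in each library, grouped by role, with the mean over 4 libraries as a bar and an asterisk on the stress-inducible class. Hsp90ab1, Hspa8 and Hsp90aa1 lie farthest right, and Hspa1a and Hspa1b lie at the low end among the cytosolic HSP70 genes.

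Levels of different genes were compared as CPM per kb, that is per kilobase of all exons annotated for the gene. Among 23129 genes ranked by this measure, Hsp90ab1 stood at rank 13, Hspa8 at rank 43 and Hsp90aa1 at rank 50. The members were placed in 4 classes from textbook knowledge: 6 stress-inducible genes known to be strongly raised by heat, 8 with a basal level that heat raises further, 2 raised by ER stress, and 19 constitutive. The stress-inducible class was not defined by a low level at rest, and it holds Hsp90aa1. Over the libraries, the median log2 level (CPM per kb with 0.5 added) was 3.61 ± 0.57 (SD, n = 4) for stress-inducible genes, 4.70 ± 0.23 for basal and heat-raised genes, 5.64 ± 0.29 for ER genes and 5.08 ± 0.22 for constitutive genes. The stress-inducible median was below the constitutive median by -1.90, -1.55, -0.38 and -2.01 on the log2 scale in replicates 1 to 4, a mean of -1.46 ± 0.75. That class was not uniform. Without Hspa1a and Hspa1b the mean difference turned to 0.53, and without Hsp90aa1 and Hsph1 it was -3.14, so the direction rests on which genes the class holds.

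The cytosolic HSP70 genes showed the widest contrast. Hspa8, the constitutive HSC70, had 1247, 1278, 1298 and 1435 CPM in replicates 1 to 4 (1315 ± 83.0 CPM, SD, n = 4). On totals that include Rn45s, the libraries lay close together and replicate 4 was highest. Rn45s held 24.2% of gene counts in replicate 3 and 9.29% in replicate 4. Both the closeness and the order depend on keeping Rn45s in the total. Hspa1a, the heat-inducible HSP70, had 1.99, 24.6, 8.17 and 6.59 CPM, from 42, 382, 104 and 101 counts. Replicate 2 stood highest and replicate 1 lowest, and no library came near the level of Hspa8. Summed immediate early genes, which mark recent neuronal activity, were 117, 154, 265 and 267 CPM. Their members differed: in replicate 2 Dusp1 was at its highest (65.4 CPM) and Fos at its lowest (0.32 CPM). A relation of these genes to Hspa1a was not tested. Hspa1b, the near copy of Hspa1a, had 13, 1, 14 and 10 counts, or 0.61, 0.06, 1.10 and 0.65 CPM, and in replicate 2 it was under the 3 counts that a count of 0 allows.

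Per kb of exon, Hspa8 exceeded Hspa1a by 7.96, 5.08, 6.54 and 6.94 on the log2 scale in replicates 1 to 4, a mean of 6.63 ± 1.19 or 99.0-fold, and by 7.84 per 1000 50-base words found in no other gene. The direction was the same in 4 of 4 libraries, which only 2 of the 16 sign patterns of an exact two-sided sign-flip permutation test match. That is the smallest p that 4 libraries can give, and it was 0.135 after Benjamini-Hochberg adjustment over the 13 gene pairs compared, so no pair could pass 0.05. Hspa1b was below the added 0.5 in every library, so a fold against it would be set by that value and none is given. Hspa1b had fewer counts than Hspa1a in 4 of 4 libraries. Reads that fit both genes could not be assigned to either: 60.3% of the 50-base words in Hspa1a exons and 62.3% of those in Hspa1b exons also occur in exons of other genes, mostly in each other, and the transcripts share an unbroken run of 638 bases. Reads with more than 1 alignment, 28.6% to 37.2% of the library totals, stand outside the gene rows, so both values are uncertain and may read low. In addition, 19.01% of the Hspa1a exon bases overlap the antisense gene Gm20481, whose reads cannot be told apart without strand.

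The near identity extends to the promoters, shown here because these are the classic heat-inducible HSP70 genes and both lay far below Hspa8 in these libraries. RefSeq (GRCm38.p6) promoter windows, 250 bases before to 50 after an annotated start, were matched for 29 of the 35 genes. They were searched on both strands for a 2-unit heat shock element, which is GAA and TTC in either order with NN between them (N is any base), and for a 3-unit element, in which a further GAA or TTC follows after NN so that the units alternate. Every 3-unit match therefore contains 2-unit matches. The 150 bases before the start of Hspa1a (chr17:34972157-34972306, minus strand) and of Hspa1b (chr17:34959239-34959388, minus strand) were identical at 149 of 150 positions. Capitals mark the 2-unit heat shock element, which begins 104 bases before the start in both:
Hspa1a: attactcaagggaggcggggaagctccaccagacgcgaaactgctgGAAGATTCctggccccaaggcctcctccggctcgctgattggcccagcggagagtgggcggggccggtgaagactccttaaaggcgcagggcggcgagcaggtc
Hspa1b: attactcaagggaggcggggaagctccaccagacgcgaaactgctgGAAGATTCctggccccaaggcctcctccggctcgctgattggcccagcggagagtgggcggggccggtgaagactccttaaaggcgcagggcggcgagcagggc

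Hspa2, an HSP70 best known from male germ cells and also made in brain, had 3.83, 13.1, 19.5 and 28.4 CPM. Its libraries spanned a wide range, and both of the second pair lay above both of the first. Hspa12a, a distant HSP70 relative found at high levels in brain, had 390, 511, 364 and 528 CPM (448 ± 83.3 CPM), and its pairs overlapped. Per kb, Hspa8 exceeded Hspa2 by 5.79 ± 1.02 on the log2 scale (8.13 per 1000 unique words), in the same direction in 4 of 4 libraries (exact permutation, adjusted p = 0.135). The Hspa8 level itself is uncertain, because 67.3% of the 50-base words of its exons occur in other genes, Gm15459 foremost. Counted per 1000 words found in no other gene, Hspa8 had 1578 ± 99.6 CPM, the highest of the 35 members, which alone were measured so. That scale may overcorrect where reads are longer than 50 bases. Words come from protein-coding transcripts only, 2550 words against 4301 exon bases for Hspa8. The higher value is thus not an effect of uniqueness alone, and the log2 gaps of Hspa8 per 1000 unique words share this limit.

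Of the HSP110 genes, whose proteins exchange the nucleotide of HSP70, the stress-inducible Hsph1 lay near its constitutive relative Hspa4. Hsph1 had 787, 900, 391 and 521 CPM, and Hspa4 had 498, 531, 257 and 641 CPM. Replicate 3 was lowest for both. Per kb, the log2 ratio of Hspa4 to Hsph1 was -0.26, -0.36, -0.21 and 0.69, with replicate 4 alone above 0 and far from the others, and a mean of -0.04 ± 0.49 that was within the spread of the libraries (exact permutation p = 1). With the length of the longest transcript the mean was -0.38. Hspa4l, the third of the family, had 311, 273, 201 and 360 CPM and lay below Hspa4 per kb by 1.78 ± 0.26 on the log2 scale, the same way in 4 of 4 libraries (exact permutation, adjusted p = 0.135). Hsph1 is 1 of 4 members with a 3-unit heat shock element in a promoter window, which 0.662% of 27025 genes have. Among the 4 are Hspd1 and Hspe1, which share the same stretch of DNA. The site TTCTGGAAAGTTC lies 15 to 27 bases after 1 annotated start of Hsph1 (chr5:149636288-149636300, minus strand), and the stretch before that start (chr5:149636316-149636465, minus strand) holds a separate 2-unit element, in capitals:
Hsph1: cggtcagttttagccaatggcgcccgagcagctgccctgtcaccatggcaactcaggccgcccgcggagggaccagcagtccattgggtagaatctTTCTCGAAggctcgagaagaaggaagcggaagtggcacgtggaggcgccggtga

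The cytosolic HSP90 genes were close to each other in level. Hsp90ab1, the constitutive HSP90, had 1424, 1427, 1277 and 1720 CPM (1462 ± 186 CPM), and the stress-inducible Hsp90aa1 had 1359, 1236, 925 and 1067 CPM (1147 ± 190 CPM). Hsp90ab1 was the higher in each library. Per kb of exon it exceeded Hsp90aa1 by 0.46, 0.60, 0.85 and 1.08 on the log2 scale, a mean of 0.75 ± 0.28 or 1.68-fold (exact permutation, adjusted p = 0.135). This ratio depends on the length used: 50.1% of the 50-base words of Hsp90aa1 and 4.13% of those of Hsp90ab1 occur in other genes, and per 1000 words found in no other gene the ratio turned to -0.10.

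Among HSP90 co-chaperones, Stip1, which links HSP70 to HSP90, led with 204, 201, 158 and 240 CPM, or 95.2 ± 15.9 CPM per kb. The ATPase activator Ahsa1 had 32.5, 34.7, 54.0 and 68.6 CPM, and the steroid receptor partner Fkbp4 had 27.7, 44.1, 103 and 69.4 CPM. For both, each library of the second pair was above each of the first, while Stip1 overlapped.

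**Figure D2:**
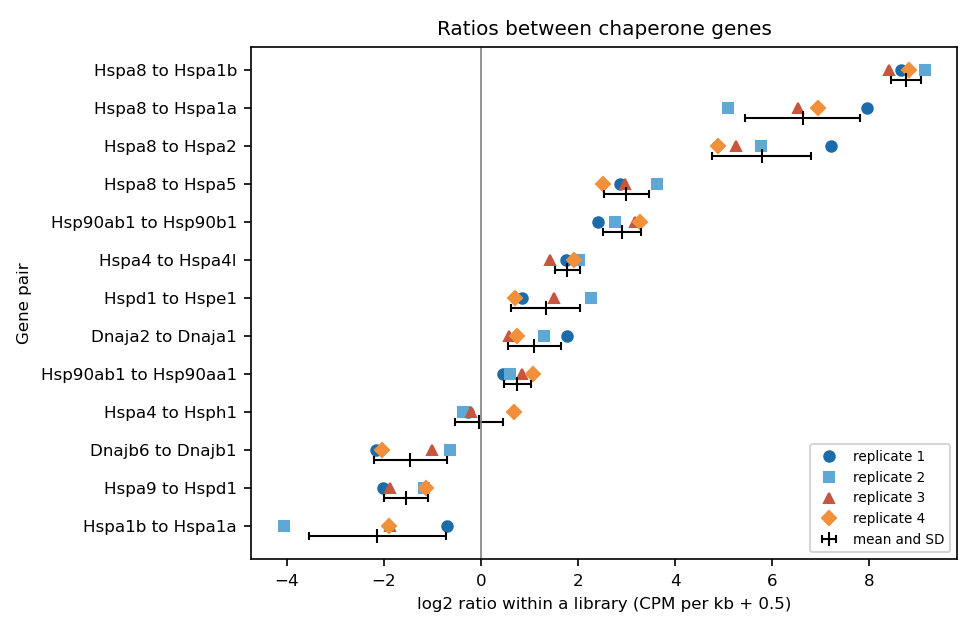
Log2 ratio between 13 pairs of chaperone genes in each library, from CPM per kb of exon with 0.5 added, with mean and SD over 4 libraries below the points. Hspa8 lies far above Hspa1a, Hsp90ab1 lies 0.46 to 1.08 above Hsp90aa1, and the ratio of Hspa4 to Hsph1 crosses 0; the Hspa1b ratios are set largely by the added 0.5.

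In the ER, Hspa5 (BiP), the HSP70 of that compartment, had 167, 99.9, 162 and 244 CPM, lowest in replicate 2. Hsp90b1 (GRP94), its HSP90, had 359, 279, 189 and 237 CPM, highest in replicate 1. Hspa13, an HSP70-like microsomal ATPase, was lower at 28.7, 23.0, 17.4 and 24.9 CPM. Per kb, Hspa8 exceeded Hspa5 by 2.99 ± 0.46 on the log2 scale (7.97-fold, or 5.19 on the log2 scale per 1000 unique words) and Hsp90ab1 exceeded Hsp90b1 by 2.91 ± 0.40 (7.50-fold), each in 4 of 4 libraries (exact permutation, adjusted p = 0.135). An ER stress response element, CCAAT and CCACG with 9 bases of any kind between them, on either strand, was found in the windows of 2 members, Hspa5 and Hsp90b1, where 0.137% of genes have one. Hspa13, the remaining ER member, had no matched window, so no further ER gene was searched. The stretches before their starts (Hspa5 chr2:34771940-34772089, plus strand, and Hsp90b1 chr10:86705445-86705664, minus strand) are shown because the element separates these 2 genes from all other members matched, and capitals mark it:
Hspa5: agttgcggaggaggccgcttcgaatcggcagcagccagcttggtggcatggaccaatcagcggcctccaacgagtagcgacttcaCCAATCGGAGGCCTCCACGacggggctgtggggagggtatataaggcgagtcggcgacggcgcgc
Hsp90b1: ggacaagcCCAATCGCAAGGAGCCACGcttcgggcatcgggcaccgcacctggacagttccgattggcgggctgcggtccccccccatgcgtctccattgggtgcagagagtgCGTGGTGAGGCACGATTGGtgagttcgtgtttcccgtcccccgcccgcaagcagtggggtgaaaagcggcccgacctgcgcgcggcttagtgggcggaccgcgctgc

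In mitochondria, Hspd1 (HSP60) forms the folding chamber and Hspe1 (HSP10) its lid. Hspd1 had 304, 235, 266 and 246 CPM, a narrow range on totals that include Rn45s. Hspe1 had 94.3, 26.5, 51.7 and 83.3 CPM, with replicate 2 lowest. Hspa9 (mortalin), the mitochondrial HSP70, had 121, 168, 117 and 181 CPM. Per kb, Hspd1 exceeded Hspe1 by 0.84, 2.28, 1.51 and 0.71 on the log2 scale, a mean of 1.33 ± 0.72 (exact permutation, adjusted p = 0.135), but the mean was 0.39 per 1000 unique words. Of the words, 39.7% in Hspd1 and 36.1% in Hspe1 occur in other genes. The words come from protein-coding transcripts only: 725 words against 1474 exon bases for Hspe1, and 2675 against 2642 for Hspd1. The shift in the ratio is thus not an effect of uniqueness alone. Hspa9 lay below Hspd1 by -1.55 ± 0.46, in 4 of 4 libraries (exact permutation, adjusted p = 0.135). Hspd1 and Hspe1 are transcribed in opposite directions from a shared promoter, and 112 of their exon bases overlap, where reads cannot be told apart without strand. The 3-unit heat shock elements counted for each are the same stretch of DNA, shown as read toward Hspe1 (chr1:55087998-55088147, plus strand), with 2 overlapping copies of the element in capitals:
Hspe1: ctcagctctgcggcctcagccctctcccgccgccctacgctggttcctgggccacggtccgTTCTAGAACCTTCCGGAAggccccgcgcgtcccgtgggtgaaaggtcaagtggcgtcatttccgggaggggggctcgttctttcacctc

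J proteins pass clients to HSP70 and start its ATPase. Dnajc6 (auxilin), which recruits Hspa8 to clathrin coats in neurons, led with 411, 423, 454 and 512 CPM, or 76.1 ± 7.66 CPM per kb. Its libraries lay close together on totals that include Rn45s. Dnaja1, a basal and heat-raised cytosolic J protein, had 203, 204, 219 and 165 CPM, and the constitutive Dnaja2 had 243, 175, 113 and 95.5 CPM, with the second pair below the first. Dnaja2 exceeded Dnaja1 per kb by 1.10 ± 0.55 on the log2 scale in 4 of 4 libraries (exact permutation, adjusted p = 0.135), but without division by length the ratio was -0.42, and per 1000 unique words it was 0.34.

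Dnajb1 (HSP40), the stress-inducible J protein, had 110, 56.4, 89.4 and 107 CPM, and the constitutive Dnajb6, an inhibitor of protein aggregation, had 44.2, 68.0, 82.1 and 47.5 CPM. Only replicate 2 had more Dnajb6 than Dnajb1 by CPM. Per kb, Dnajb6 lay below Dnajb1 by -1.46 ± 0.75 on the log2 scale in 4 of 4 libraries (exact permutation, adjusted p = 0.135), and by -0.54 with the length of the longest transcript. Dnajb2, a J protein of neurons, had 40.9 ± 16.4 CPM, and Dnajb5, a relative of Dnajb1, had 42.4, 10.9, 26.0 and 32.3 CPM with replicate 2 lowest. Dnajb6 is the only one of 14 matched constitutive members with a 3-unit heat shock element, in capitals in the stretch before 1 of its starts (chr5:29735748-29735897, plus strand):
Dnajb6: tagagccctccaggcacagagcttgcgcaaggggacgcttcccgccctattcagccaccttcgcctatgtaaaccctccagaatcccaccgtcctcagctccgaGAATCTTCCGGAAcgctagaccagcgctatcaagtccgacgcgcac

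Hspb1 (HSP25), a small heat shock protein that holds unfolded clients, had 1.75, 8.04, 15.9 and 1.31 CPM. Replicates 2 and 3 were high and replicates 1 and 4 low, so the library pairs did not separate. Endothelial and mural markers, cell types that also make Hspb1, summed to 152, 180, 168 and 125 CPM in replicates 1 to 4, with 5 of 10 at 1 CPM or more in all. Their defining marker Cldn5 had 0.71, 0.19, 3.06 and 0 CPM, from 15, 3, 39 and 0 counts. The markers differed in pattern: another had 7.33, 40.4, 9.66 and 1.96 CPM, and a further marker 62.0, 32.5, 81.4 and 86.2 CPM. Neither the sum nor Cldn5 therefore stands for the whole list. The part of these cells in the Hspb1 level was not tested. Of the 50-base words of Hspb1, 48.8% occur in other genes, mainly Hsp25-ps1. The stretch before its start (chr5:135887769-135887918, plus strand) holds 2 separate 2-unit elements, in capitals, though the gene is low here:
Hspb1: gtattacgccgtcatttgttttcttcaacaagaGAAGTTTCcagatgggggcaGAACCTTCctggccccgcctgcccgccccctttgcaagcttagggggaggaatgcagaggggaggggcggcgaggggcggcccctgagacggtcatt

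Across classes, the 2-unit element was found in 4 of 5 matched stress-inducible genes (Hspa1a, Hspa1b, Hspb1 and Hsph1), 4 of 8 basal and heat-raised genes, 4 of 14 constitutive genes and 0 of 2 ER genes, where 17.0% of all genes have it. These matches are not all separate: the windows of Hspa1a and Hspa1b were identical at 296 of 300 positions, and Hspd1 and Hspe1 share the same stretch. Genes with the element spanned from Hspa1b at 0.217 CPM per kb to Hspd1 at 99.4 CPM per kb. The members above Hspd1 in level, Hsp90ab1, Hspa8 and Hsp90aa1, had no matched window, so the top of the range was not examined. A match describes letters and not binding. For 6 members, Hsp90aa1, Hsp90ab1, Hspa8, Hspa9, Hspa13 and Cct4, no window was matched.

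**Figure D3:**
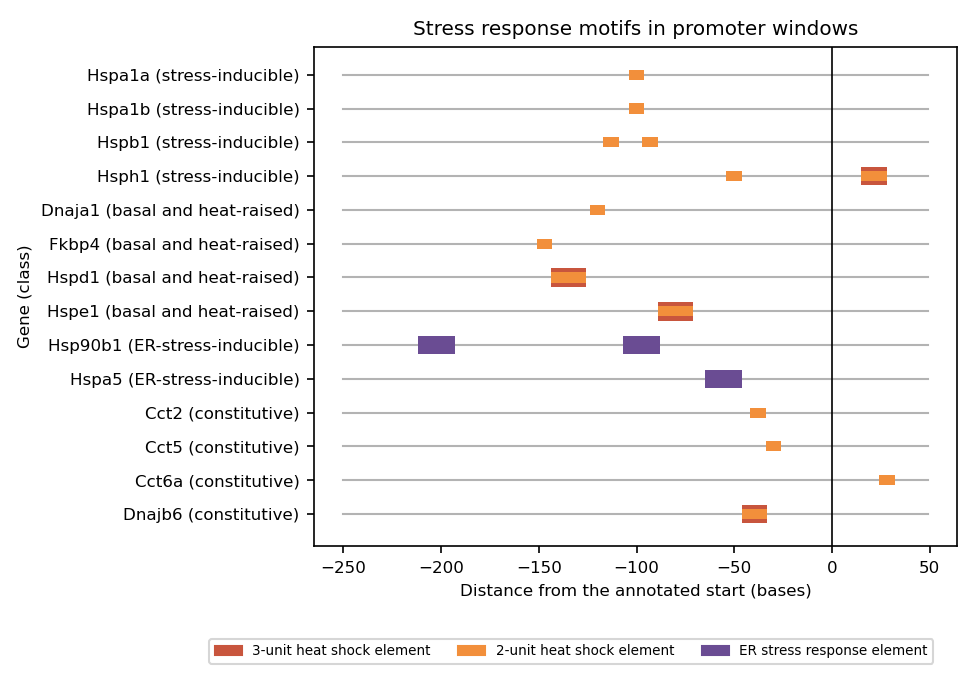
Position of each motif match in the promoter windows of the 14 genes with a match, by distance in bases from the annotated start at 0, for 1 window per gene. The ER stress response element appears in Hspa5 and Hsp90b1 only, and the 3-unit heat shock element in Hspd1, Hspe1, Hsph1 and Dnajb6.

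The 8 CCT subunits, which occur once per ring in the assembled chaperonin, summed to 887, 745, 783 and 902 CPM in replicates 1 to 4. Each subunit was set against the median of the 8 within a library. Cct2 was highest at 0.84 ± 0.21 on the log2 scale, above the median in 4 of 4 libraries. The top place depends on length: without division by length Cct6a (0.58) and Tcp1 (0.51) exceeded Cct2 (0.42), and per 1000 unique words Cct6a (0.46) and Cct5 (0.41) exceeded Cct2 (0.40). Cct3 was lowest at -1.92 ± 0.19 per kb, below the median in 4 of 4. Cct5, at 0.43 ± 0.37, and Cct8, at 0.27 ± 0.29, were above 0 in all libraries, and Cct4, at -0.95 ± 0.42, and Cct7, at -1.54 ± 0.53, were below 0 in all. Tcp1, which encodes the alpha subunit, was near the median at -0.03 ± 0.18. Cct6a had 1.12 and 0.99 in the first pair and -0.03 and -0.04 in the second.

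The subunits spanned 2.77 on the log2 scale, or 6.81-fold, per kb of all exons. The span depends on length: it was 2.26 with the longest transcript, 1.69 without division by length and 1.50, or 2.83-fold, per 1000 unique words. Words come from protein-coding transcripts only: Cct3 had 2457 words, 1.67% of them shared, against 6370 exon bases. Cct3 and Cct7 have exons annotated over 6.37 and 6.78 kb, which lowers them on the first scale, but Cct3, Cct4 and Cct7 had means below the median on all 3 length scales. Exons of other genes overlap 16.9% of the exon bases of Tcp1 and 15.3% of those of Cct6a, where reads cannot be told apart without strand.

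**Figure D4:**
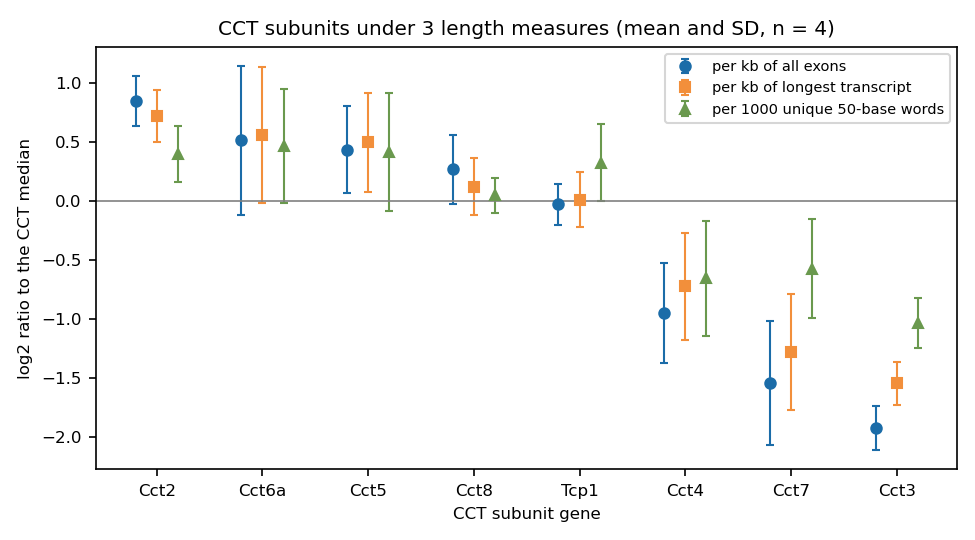
Log2 ratio of each CCT subunit to the median of the 8 in the same library (mean and SD, n = 4) with 3 measures of length. Cct3, Cct4 and Cct7 lie below 0 with each measure, and the distance from Cct2 to Cct3 shrinks from the exon measure to the unique words.

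Chaperone genes varied less between libraries than most genes did, with a median SD of log2(CPM + 0.5) of 0.39 against 0.81. That SD was above 1 in 3 of the 34 members with a mean of 1 CPM or more, against 38.0% of 13841 genes at that level. Those 3 were Hspb1 at 1.53, Hspa1a at 1.37 and Hspa2 at 1.19, and 1 was left without replicate 1. With Rn45s kept in the totals, the lowest were Hspa8 at 0.09, Cct2 at 0.13 and Dnajc6 at 0.14. Genes at like levels were nearer: the median SD of the 17 members between 100 and 1000 CPM was 0.36, against 0.47 for all genes in that range, and that of the 13 between 10 and 100 CPM was 0.51, against 0.70. The 3 above 1000 CPM had a median of 0.18 against 0.52.

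**Figure D5:**
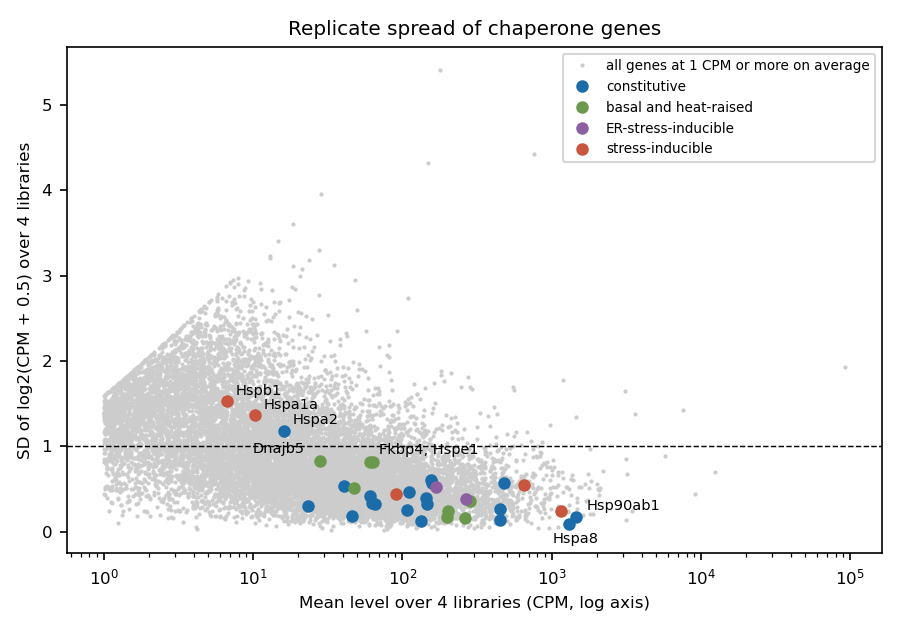
SD of log2(CPM + 0.5) over 4 libraries against mean CPM (log axis) for genes at 1 CPM or more on average (grey) and chaperone genes by class (coloured), with a dashed line at 1. Hspb1, Hspa1a and Hspa2 lie above the line and Hspa8 near the bottom.

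The library pairs were then compared gene by gene with edgeR's quasi-likelihood test and Benjamini-Hochberg adjustment, which called 176 of 13905 genes, or 1.27%. None of the 35 members was called (0 of 35 by edgeR and 0 of 34 by DESeq2, which called 9.44% of genes), and 4 members had an unadjusted p under 0.05, against 16.8% of all genes. In edgeR these were Hsph1, with a log2 difference of second minus first pair of -0.89 (SE 0.30, adjusted p = 0.156), Dnaja2 with -0.97 (SE 0.37, adjusted p = 0.207), Fkbp4 with 1.30 (SE 0.50, adjusted p = 0.208) and Cct6a with -0.85 (SE 0.37, adjusted p = 0.258). By CPM, the second pair lay above the first without overlap in 10 members, against 23.7% of genes, and below it in 6, against 23.8%. These CPM keep Rn45s in the totals, which lowers the second pair more than the first, so both counts depend on it. The members' median log2 difference was 0.13, and that of all genes -0.03. Without any 1 library edgeR called 389 to 699 genes and 0 members, in fits where 1 pair is a lone library assumed to vary like the other pair. With so few libraries, the absence of a call does not show that a member had the same level in both pairs.

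Partner genes outside the 35 were taken from written lists, chosen with earlier results of these data known. All 3 heat shock factor genes were at 1 CPM or more in all libraries, Hsf1, the main activator of the heat shock response, at 51.5 ± 28.9 CPM and Hsf2 at 38.5 ± 27.7 CPM. None of the 3 was called between the pairs by edgeR or DESeq2, and 1 had an unadjusted edgeR p under 0.05. Of 42 other HSP70 and J protein genes, 34 were at 1 CPM or more in all libraries, and edgeR called 0 of 37 tested (3 with an unadjusted p under 0.05, 3 called by DESeq2). Dnajc5 (cysteine string protein), the J protein of synaptic vesicles that works with Hspa8, was the highest per kb at 63.2 ± 4.79 CPM per kb, against 76.1 ± 7.66 for Dnajc6, and Dnajc27 followed at 40.3 ± 9.02. Of 9 other small heat shock protein genes, 4 were at 1 CPM or more in all libraries and 5 had 0 counts in all, with Cryab highest at 21.8 CPM per kb and Hspb6 next at 17.5.

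Among 13 exchange factors and regulators of HSP70, 1 rose in the second pair: Hspbp1, with 3.69, 1.61, 41.8 and 79.9 CPM (log2 difference 4.50, SE 0.74, edgeR adjusted p = 0.0214). In that list 4 genes had an unadjusted edgeR p under 0.05, and DESeq2 called 3 higher. Bag1 was the highest of them per kb at 126 CPM per kb, followed by Bag5 at 26.4. Among 16 ER folding and unfolded protein response genes, 1 fell: Pdia3, a disulfide isomerase, with 238, 209, 62.7 and 76.8 CPM (log2 difference -1.67, SE 0.36, edgeR adjusted p = 0.0459, or 0.0556 without replicate 3). In that list 3 genes had an unadjusted edgeR p under 0.05, and DESeq2 called 2 lower and 1 higher. Hspa5 and Hsp90b1 were not called with it, and Canx, a lectin chaperone, led that list at 59.2 CPM per kb.

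Of 14 HSP90 paralog and co-chaperone genes, edgeR called 0 (4 with an unadjusted p under 0.05, 2 called by DESeq2), and Ptges3 (p23) and Tomm34 were highest at 30.6 and 24.4 CPM per kb. Of 11 genes for prefoldin and other chaperonin partners, which carry or hold clients of CCT, 10 were tested and neither tool called any (4 with an unadjusted edgeR p under 0.05), and Pfdn5 and Pfdn2 were highest at 32.4 and 24.8 CPM per kb. Of 15 immediate early genes, edgeR called 0 of 12 tested (3 with an unadjusted p under 0.05, 3 called by DESeq2), led by Egr1 and Dusp1 at 14.4 and 11.8 CPM per kb.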

How the data were processed

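Ribosome-bound RNA of 4 immunopurified libraries was measured by sequencing. The deposited values are raw read counts per gene symbol; the submitters' processing notes name STAR 2.0.0e, HTSeq and the build mm10. The annotation, the strandedness and the counting mode are not given in the sources used here. The 5 HTSeq summary rows (reads outside features, 24.0% to 30.1% of the total, reads with more than 1 alignment, 28.6% to 37.2%, ambiguous reads, 1.25% to 2.07%, and others) were left out, and library totals ran over the remaining gene rows. No columns of other series were present (0). The libraries differed from each other far beyond counting noise, with a chi-square per degree of freedom of at least 153, and were kept as 4 replicates.

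CPM were divided by union exon length from GENCODE M21 (GRCm38, the assembly of mm10), with a pseudocount of 0.5 for log2 values. Uniqueness was measured as the share of 50-base words of a gene's exons found in other genes. Promoter windows are those of RefSeq. Ratios were tested by exact sign-flip permutation over 16 sign patterns. The second library pair was compared with the first with edgeR 4.0.16 (TMM, filterByExpr, quasi-likelihood test) in R 4.3.3, with DESeq2 1.42.0 as an alternative and an adjusted p of 0.05 as threshold. The edgeR procedure was also tested on simulated data. The libraries are split by library number because no batch is named in the labels.

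All 35 members, the called and the 2 highest genes per kb of each of 8 pathway lists, and the defining gene of 10 cell type lists may be named. The members, classes and lists were chosen with earlier results of these data known. The other alternatives were another pseudocount, other lengths, other filters and scaling, and leaving out each replicate. Intervals and floors cover counting error only.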

Additional observations from a re-analysis of the deposited data

Results flagged for a closer look

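The log2 ratio of Hspa4 to Hsph1 per kb was 0.691 in replicate 4 and -0.364 to -0.207 in the other libraries. The gap from replicate 4 to the nearest library was 0.851 of the whole range, above Dixon's 95% limit for 4 samples. It was the 1 such case among 57 sets of 4 values examined, and chance gives about 1 in 20.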

How the results depend on the processing

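No paired analysis was possible because the 4 libraries form 1 group, so their replicate numbers pair nothing. Of the gene pairs, the ratio of Dnaja2 to Dnaja1 turned to -0.42 without division by length, and that of Hsp90ab1 to Hsp90aa1 to -0.10 per 1000 unique words, an alternative chosen after seeing the data. The ratio of Hspa4 to Hsph1, -0.04 with all libraries, ran from -0.28 to 0.073 when each replicate was left out, and was 0.04, 0.073 and 0.02 without replicates 1, 2 and 3. The other pairs kept their direction under all alternatives run. The stress-inducible minus constitutive difference turned to 0.53 without Hspa1a and Hspa1b and was -3.14 without Hsp90aa1 and Hsph1, both chosen after seeing the data. The CCT span of 2.77 was 1.69 without length, 2.26 with the longest transcript and 1.50 per 1000 unique words. Members with an SD over 1 numbered 1 to 4 when each replicate was left out. Genes called between the library pairs, 176 with edgeR, numbered 1377 with DESeq2, 875 without a filter on low counts, 371 with at least 10 CPM in 2 libraries, and 389 to 699 when each replicate was left out, which leaves a lone library in 1 pair. The causes of those shifts were not tested. With 4 libraries no exact test over sign patterns can reach 0.05. Hspa1b is limited by its low counts of 1 to 14, which leave out reads with more than 1 alignment.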
